A study of Equus caballus with 10 samples.

Results

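The genes described here restrain NFκB signalling or protect cells while it is active, and many of them are themselves switched on by NFκB. They were the 10 rows of the expression table named TNFAIP3, TNFAIP2, TNFAIP8, TNIP1, TNIP3, BIRC2, BIRC3, TRAF1, CFLAR and ZC3H12A, chosen by gene name, out of 29196 genes in the table. All 10 were listed, and 10 of 10 were among the 17992 genes with enough signal to be tested.

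RNA had been sequenced from primary tendon cells (tenocytes) of the superficial digital flexor tendon, isolated from 5 horses after death. The cells were passaged in culture and then kept for 14 days in 3D gels of bovine type I collagen, in medium with fetal bovine serum. In the PF-06650833 alone group the gels received PF-06650833 at 100 nM every day, a compound that blocks the kinase IRAK-4. In the IL-1β plus PF-06650833 group they received the same inhibitor and, every 3 to 4 days, IL-1β at 17 ng/ml. Each group had 5 libraries, 1 from each tenocyte line, and the lines are called donors 1 to 5. Since every library was exposed to the inhibitor, the comparison shows what IL-1β changed while IRAK-4 was inhibited, and it does not show what the inhibitor changed. The experiment is a culture of isolated cells without the other cells of an injured tendon.

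IL-1β signals through its receptor, MyD88 and the IRAK kinases to the IκB kinase complex, which sends IκBα to the proteasome and lets NFκB enter the nucleus. Among the genes NFκB then induces are its own brakes. A20 (TNFAIP3) edits the ubiquitin chains on which the upstream kinases assemble, the ABIN proteins (TNIP1, TNIP3) bind ubiquitin chains and A20, and Regnase-1 (ZC3H12A) is a ribonuclease that cuts the mRNAs of IL6 and other inflammatory genes. Other targets keep cells alive under inflammatory signals: the cellular inhibitors of apoptosis (BIRC2, BIRC3), c-FLIP (CFLAR) and the adaptor TRAF1.

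Expression is given as the authors' variance-stabilized log2 values, on which 0 reads stand at 3.43 and a difference of 1 is about a doubling for genes with many reads. Differences between low values are compressed. According to the sample labels, each library had 31200000 to 41400000 paired-end reads of 150 bases. The lowest value of any of these 10 genes in any library, TNIP3 at 6.93, corresponded to 101.3 normalized counts, so that none of them was near the limit of detection. Differential expression here means an adjusted p under 0.05 (limma, Benjamini-Hochberg over 17992 genes) together with a log2 fold change of 1 or more in either direction. In bulk RNA, fewer cells of a kind and less RNA per cell cannot be told apart.

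With IL-1β plus PF-06650833, 5 of the 10 genes were differentially expressed, all 5 of them higher: ZC3H12A, BIRC3, TNFAIP3, BIRC2 and TNIP1. Among all tested genes 6.68% were differentially expressed, 3.11% higher and 3.57% lower. With the tenocyte line as a replicate block the count was again 5 of 10, against 8.26% of all genes. The values of the 2 groups did not overlap in 6 of the 10 genes, which are these 5 and TRAF1, against 12.7% of all genes. TRAF1 was the 1 gene of the 6 that lay lower with IL-1β. At an unadjusted p below 0.05, 6 of the 10 were higher and 1 lower, against 14.9% and 14.8% of all tested genes, shares that also stand behind the counts at this p given for the lists. At an adjusted p below 0.05 without a minimum fold change there were 6 of 10, against 15.5% of all genes. Their median log2 fold change was 1.00 and -0.01 over all tested genes. TNFAIP2, TNFAIP8, TNIP3 and CFLAR were not differentially expressed, and their groups overlapped. The plot of the genes by library shows the 5 differentially expressed genes rising in every donor. TNFAIP2, at a log2 fold change of 0.97, rose in 4 of 5 donors.

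**Figure D1:**
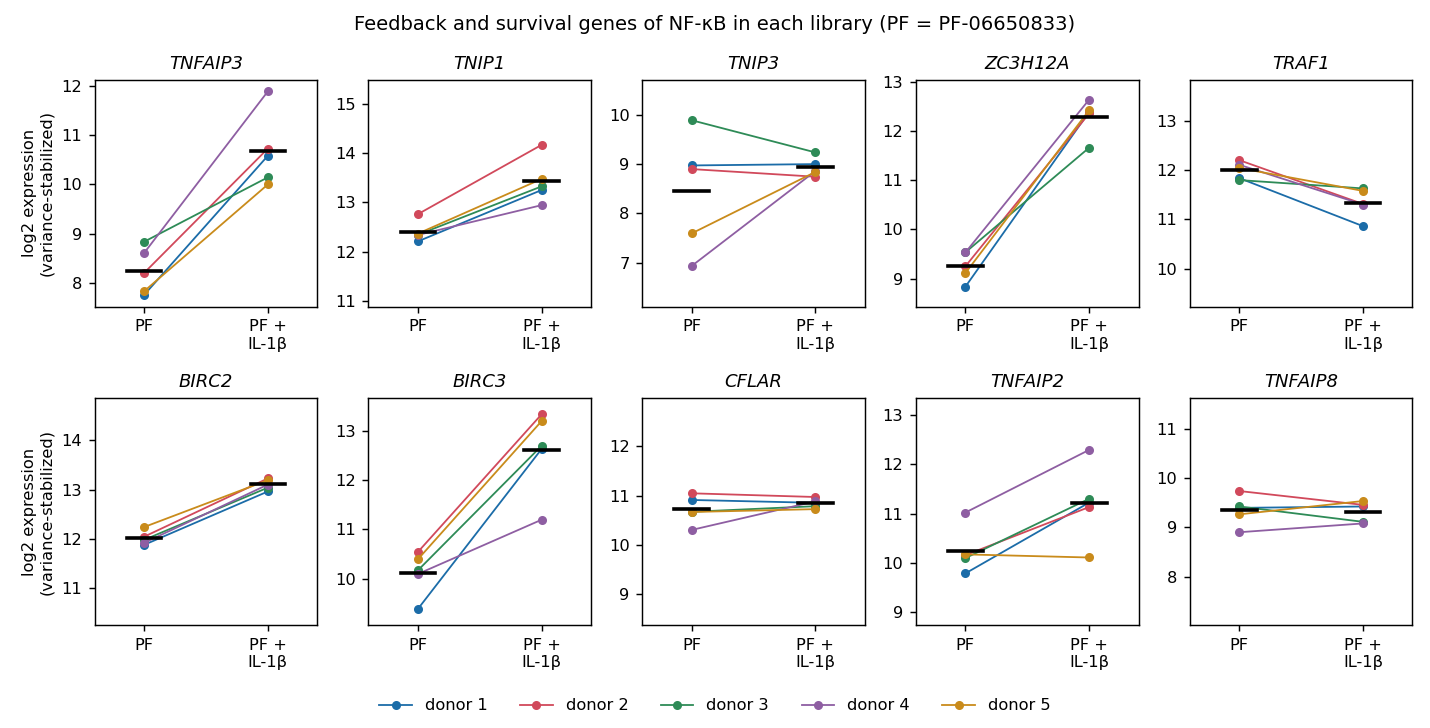
Log2 expression (variance-stabilized, vertical axis) of the 10 genes with PF-06650833 alone (PF) and with IL-1β plus PF-06650833 (PF + IL-1β). Each line joins the 2 libraries of 1 donor, black bars are means of 5 libraries, and every panel spans the same log2 range. All 5 lines rise for TNFAIP3, TNIP1, ZC3H12A, BIRC2 and BIRC3, all 5 fall for TRAF1, and the lines of TNIP3 converge on 8.93.

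The brake on cytokine mRNA gave the strongest response. ZC3H12A stood at 8.84, 9.25, 9.54, 9.53 and 9.11 in donors 1 to 5 with PF-06650833 alone and at 12.39, 12.35, 11.66, 12.63 and 12.42 with IL-1β plus PF-06650833. The lowest library with IL-1β lay more than 2 log2 units above the highest without it. IL-1β raised it by 3.04 in log2 expression (limma, standard error 0.19, adjusted p = 1.78e-05), the 142nd largest in size of the 17992 tested genes. Mean normalized counts went from 599.3 ± 122.5 (SD, n = 5) to 5109 ± 1151 (SD, n = 5), an 8.52-fold rise.

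TNFAIP3 encodes A20, whose loss leaves NFκB signalling unchecked in many cell types. Its log2 expression was 7.76, 8.20, 8.84, 8.61 and 7.83 in donors 1 to 5 with PF-06650833 alone and 10.58, 10.73, 10.14, 11.89 and 10.00 with IL-1β plus PF-06650833. All 5 libraries with IL-1β were above all 5 without it, by 1.31 in donor 3 and by 3.28 in donor 4. Its fitted log2 fold change was 2.42 (limma, standard error 0.34, adjusted p = 0.00129). In normalized counts the mean rose 6.12-fold, from 296.1 ± 104.2 (SD, n = 5) to 1812 ± 1127 (SD, n = 5).

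Of the A20-binding proteins, TNIP1 rose and TNIP3 did not pass the test. TNIP1 was at 12.21, 12.76, 12.34, 12.34 and 12.37 with PF-06650833 alone and at 13.25, 14.17, 13.33, 12.95 and 13.48 with IL-1β plus PF-06650833, in the order of donors 1 to 5. The groups were separate, although donor 2 without IL-1β came close to donor 4 with it. Its log2 fold change, 1.03 (limma, standard error 0.20, adjusted p = 0.00652), was only just over the minimum. Quantile normalization took it to 0.997, and it was below 1 without donor 2 (0.94), without the IL-1β library of donor 2 (0.85) and without the PF-06650833 alone library of donor 1 (0.98), so that the gene was then not counted while its adjusted p stayed below 0.05.

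TNIP3 varied between donors more than it varied with IL-1β. With PF-06650833 alone it was at 8.97, 8.90, 9.89, 6.93 and 7.59 in donors 1 to 5, and with IL-1β plus PF-06650833 at 8.997, 8.74, 9.23, 8.86 and 8.84. Donors 4 and 5, the lowest without IL-1β, were higher with it by 1.93 and 1.25, donor 3, the highest, was lower by 0.65, and donors 1 and 2 moved by 0.03 and -0.15. The standard deviation between donors was 1.18 without IL-1β and 0.19 with it. Between the groups it differed by 0.48 on the log2 scale (95% confidence interval -0.54 to 1.496, adjusted p = 0.542 from limma), so that a rise of the size seen for TNIP1 could not be told from no change. The log2 fold change of TNIP3 was 0.10 without the PF-06650833 alone library of donor 4, 0.12 without donor 4, 0.26 without the PF-06650833 alone library of donor 5, 0.29 without donor 5, 0.76 without donor 3 and 0.84 without the PF-06650833 alone library of donor 3.

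Both cellular inhibitors of apoptosis, ubiquitin ligases that keep the TNF receptor complex in its survival state and limit the kinase NIK, rose. BIRC3 (cIAP2) was at 9.38, 10.54, 10.17, 10.09 and 10.39 with PF-06650833 alone and at 12.63, 13.33, 12.69, 11.19 and 13.20 with IL-1β plus PF-06650833. Donor 4 responded least, by 1.10, against 2.53 to 3.25 in the other donors, and its library with IL-1β lay below the other 4 of that group. This gave a log2 fold change of 2.49 (limma, standard error 0.37, adjusted p = 0.00158), and mean normalized counts went from 1127 ± 311.2 (SD, n = 5) to 6984 ± 3122 (SD, n = 5), a 6.20-fold rise.

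BIRC2 (cIAP1) gave the most even response of the 10 genes. It stood at 11.88, 12.04, 11.98, 11.92 and 12.24 with PF-06650833 alone and at 12.96, 13.23, 13.04, 13.10 and 13.19 with IL-1β plus PF-06650833. The difference lay between 0.95 and 1.18 in all 5 donors, with a standard deviation of 0.10. Averaged over donors this was a log2 fold change of 1.09 (limma, standard error 0.09, adjusted p = 1.07e-04), a 2.13-fold rise in mean normalized counts.

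CFLAR encodes c-FLIP, a relative of caspase-8 that has no protease activity and blocks caspase-8 at death receptors. Its log2 expression was 10.91, 11.05, 10.67, 10.31 and 10.67 in donors 1 to 5 with PF-06650833 alone and 10.86, 10.97, 10.79, 10.89 and 10.73 with IL-1β plus PF-06650833. The groups overlapped, and donor 4 moved most, by 0.58. On average the log2 difference was 0.12 (95% confidence interval -0.16 to 0.41, adjusted p = 0.578 from limma), an interval that holds neither a rise nor a fall as large as the minimum fold change. The log2 fold change of CFLAR was 0.01 without donor 4, 0.02 without its PF-06650833 alone library and 0.20 without the PF-06650833 alone library of donor 2.

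TRAF1, an adaptor that joins TRAF2 and the cellular inhibitors of apoptosis, went the other way. It was at 11.84, 12.20, 11.80, 12.11 and 12.04 with PF-06650833 alone and at 10.86, 11.31, 11.63, 11.30 and 11.58 with IL-1β plus PF-06650833. Every library with IL-1β was below every library without it, with differences from -0.17 in donor 3 to -0.97 in donor 1. With a log2 difference of -0.66 (limma, standard error 0.15, adjusted p = 0.0121) it passed the threshold on p and missed the minimum fold change, so TRAF1 was not counted as differentially expressed. Over the alternatives the log2 fold change of TRAF1 stayed between -0.78 and -0.54 and its adjusted p between 0.00376 and 0.0714, the highest being the value without donor 2.

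TNFAIP2, a TNF-induced gene whose protein takes part in forming thin membrane protrusions, was at 9.79, 10.16, 10.10, 11.02 and 10.17 with PF-06650833 alone and at 11.23, 11.13, 11.30, 12.29 and 10.11 with IL-1β plus PF-06650833. Donors 1 to 4 were higher with IL-1β by 0.98 to 1.44, while donor 5 moved by -0.06, and its library with IL-1β lay inside the range of the other group. The log2 fold change of TNFAIP2 was 0.97 (limma, standard error 0.35, adjusted p = 0.0859), and the adjusted p was 0.0144 with the tenocyte line as a replicate block. Without donor 5 the log2 fold change was 1.22 (adjusted p = 0.0483 from limma), and without only its IL-1β library it was 1.241 (adjusted p = 0.0202), at which the gene would be counted.

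TNFAIP8, the founding member of a family of lipid-binding proteins and a gene linked to resistance to apoptosis, showed no shift. Its values were 9.39, 9.73, 9.42, 8.90 and 9.26 with PF-06650833 alone and 9.42, 9.45, 9.11, 9.08 and 9.53 with IL-1β plus PF-06650833. It was higher in 3 donors and lower in 2. The mean log2 difference was -0.02 (95% confidence interval -0.38 to 0.33, adjusted p = 0.942 from limma), and its sign turned to 0.006 above 0 when libraries were centred on their medians and to 0.02 above 0 with array weights.

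**Figure D2:**
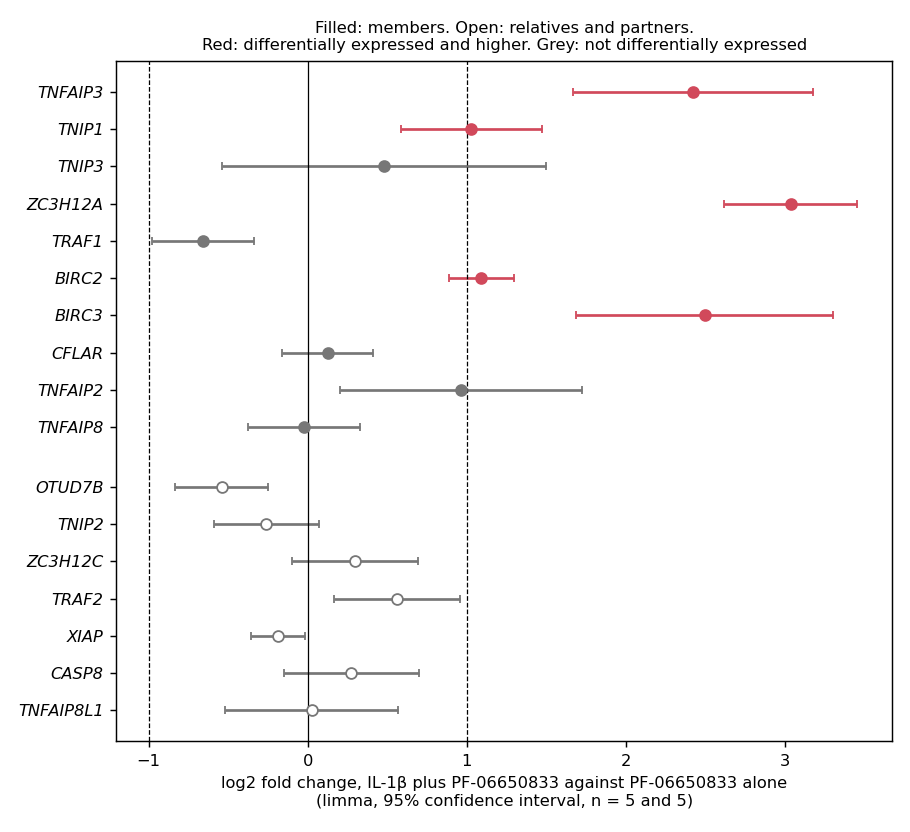
Log2 fold change (horizontal axis) of the 10 genes (filled) and of 7 relatives or partners (open), from limma with its 95% confidence interval, 5 libraries against 5. Dashed lines mark the minimum fold change of 1 in either direction. ZC3H12A, BIRC3 and TNFAIP3 lie between 2.42 and 3.04, BIRC2 and TNIP1 just past 1, and none of the open points passes a dashed line.

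The donors did not rank alike across the rising genes, as the plot of differences within donors shows. Donor 4 had the largest difference for TNFAIP3 and the smallest for BIRC3 and TNIP1. Donor 3 had the smallest for TNFAIP3 and ZC3H12A, donor 5 for BIRC2. Over all 560 genes that were higher with IL-1β plus PF-06650833, the median difference was 1.37 in donor 3 and between 1.68 and 1.83 in the other donors, so that donor 4 did not stand apart there. With 5 donors no correlation between the genes was computed.

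**Figure D3:**
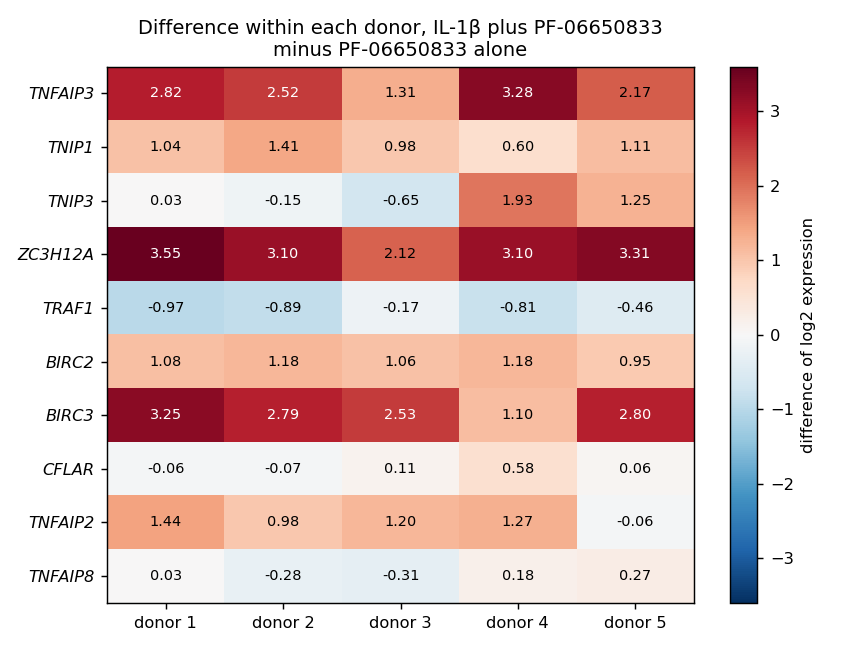
Difference of log2 expression between IL-1β plus PF-06650833 and PF-06650833 alone within each donor (columns) for the 10 genes (rows), with red for higher and blue for lower. BIRC2 is near even across donors (0.95 to 1.18), BIRC3 is weakest in donor 4 (1.10), and TNIP3 is higher by over 1 only in donors 4 and 5.

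Responses were compared between 9 pairs of related genes or partners by the difference of their log2 values within a library (exact two-sided permutation test of 5 libraries against 5, adjusted over 9 pairs). The smallest p this test allows is 0.00794. For 5 pairs every donor gave a difference in the same direction, with p = 0.00794 and adjusted p = 0.0143 by the exact test. This test does not use the pairing by line. The exact sign-flip test within lines gave p = 0.0625 for each of these 5 pairs, the smallest it allows with 5 lines, so that none can pass in it. TNFAIP3 rose by 2.96 more than OTUD7B, which encodes the A20 relative Cezanne and was at -0.54 (adjusted p = 0.0198 from limma). ZC3H12A rose by 2.74 more than its relative ZC3H12C, which was at 0.30. The response of BIRC3 exceeded that of XIAP, the inhibitor that binds caspases directly, by 2.68. The response of TNIP1 exceeded that of the third ABIN gene, TNIP2, by 1.29. The response of TRAF1 lay below that of TRAF2 by 1.22 on the log2 scale, as TRAF2 itself was at 0.56 (adjusted p = 0.0589 from limma). These are differences between responses and not between expression levels.

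The 2 cellular inhibitors of apoptosis differed less clearly from each other. BIRC3 rose by 1.403 more than BIRC2 on average and by more in 4 of 5 donors, with a range from -0.08 in donor 4 to 2.16 in donor 1 (exact permutation test, p = 0.0397, adjusted p = 0.0595). Without donor 4 the difference was 1.77 and the adjusted p from the exact test was 0.0429. For 3 further pairs the difference was not larger than the spread. TNIP3 minus TNIP1 was -0.55, ranging from -1.64 to 1.32 over donors (adjusted p = 0.402, exact test). CFLAR minus CASP8 was -0.15 (-0.53 to 0.07, adjusted p = 0.337, exact test), and TNFAIP8 minus TNFAIP8L1 was -0.05 (-0.81 to 0.72, adjusted p = 0.833, exact test). These pairs were compared without a correction for gene length, which drops out of a difference between libraries. BIRC2 and BIRC3 have similar coding sequences, and how reads common to both were divided was not tested.

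**Figure D4:**
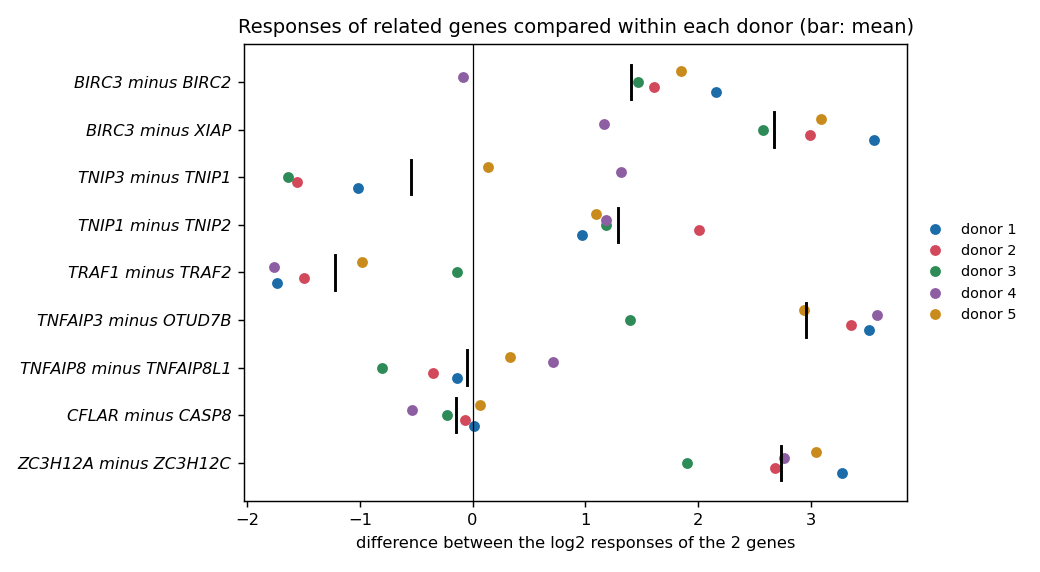
Difference between the log2 responses of 2 related genes (first minus second, horizontal axis) in each donor (points), with the mean as a bar, for 9 pairs. All 5 points lie on 1 side of 0 for BIRC3 minus XIAP, TNIP1 minus TNIP2, TRAF1 minus TRAF2, TNFAIP3 minus OTUD7B and ZC3H12A minus ZC3H12C.

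Of the subunits and inhibitors of NFκB itself, 4 of 11 tested genes were higher and 0 lower, against 3.11% and 3.57% of all genes. Their median log2 fold change was 0.71. All 11 of 11 log2 fold changes were above 0, against 8868 of 17992 over all tested genes. At an unadjusted p below 0.05, 8 were higher and 0 lower. NFKBIZ rose by 2.92, NFKBIA, the gene of IκBα, by 1.64, NFKB2 by 1.32 and NFKB1 by 1.15 on the log2 scale, with adjusted p-values between 7.28e-05 and 4.36e-04 from limma. RELA, the p65 subunit, was at 0.15 (adjusted p = 0.288), and BCL3, an IκB protein of the nucleus, at 0.04 (adjusted p = 0.928). REL, at 0.94, RELB, at 0.71, and the IκB gene NFKBIB, at 0.67, passed on p without reaching the minimum fold change. Their adjusted p-values were 0.00543, 0.0206 and 0.00336 from limma.

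Of 12 tested genes for A20 partners and ubiquitin editing, 0 were differentially expressed by limma, with or without the replicate block, while 5 had an unadjusted p below 0.05, 3 higher and 2 lower. At an adjusted p below 0.05 without a minimum fold change there were 3 of 12, against 15.5% of all genes. They were OTUD7B, TAX1BP1 and RBCK1, the last a subunit of the linear ubiquitin ligase at 0.37 (adjusted p = 0.0345 from limma). CYLD, another deubiquitinase that restrains NFκB, was at 0.18 (adjusted p = 0.304), OTULIN at -0.03 and the A20 cofactor TAX1BP1 at 0.31 (adjusted p = 0.0470 from limma). Of 18 genes for the TNF receptor complex and the IκB kinases 0 were differentially expressed, and at an unadjusted p below 0.05 there were 4 higher and 2 lower, close to the shares of all genes. At an adjusted p below 0.05 without a minimum fold change there were 3 of 18, against 15.5% of all genes. They were the kinase gene MAP3K7 (TAK1), TRAF3 and the receptor gene TNFRSF1A. MAP3K7 was at -0.67 (adjusted p = 0.00215 from limma) and TNFRSF1A at -0.37 (adjusted p = 0.0407), both with groups that did not overlap. TRAF3 was at 0.48 (adjusted p = 0.0212 from limma). MAP3K14, the gene of NIK, was at -0.46 (adjusted p = 0.170), and the catalytic IκB kinase genes IKBKB and CHUK at 0.06 and 0.11. The medians of these 2 lists were 0.14 and 0.07.

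Among regulators of mRNA decay, the relatives and partners of ZC3H12A, 0 of 11 tested genes were higher and 1 was lower (limma), against 3.11% and 3.57% of all genes. At an unadjusted p below 0.05 there were 0 higher and 2 lower. ZFP36L2, which destabilizes mRNAs with AU-rich elements, fell by 1.44 in log2 expression (limma, standard error 0.21, adjusted p = 0.00150). N4BP1, the other lower gene, was at -0.43 (adjusted p = 0.0103 from limma) and missed the minimum fold change. It was lower in 5 of 5 donors, and its groups did not overlap. Roquin genes RC3H1 and RC3H2, whose proteins share targets with Regnase-1, were at 0.12 and 0.05.

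In the wider set of survival genes 2 of 10 tested genes were higher and 0 lower, against 3.11% and 3.57% of all genes. There were 3 higher and 3 lower at an unadjusted p below 0.05. IER3, an early response gene that NFκB induces, rose by 4.06 (limma, standard error 0.35, adjusted p = 1.16e-04), and SOD2, the mitochondrial superoxide dismutase, by 2.52 (standard error 0.36, adjusted p = 0.00129). BCL2L1 (BCL-XL) was at -0.36 (adjusted p = 0.0678) and MCL1 at 0.41 (adjusted p = 0.128). GADD45B, also an NFκB target, was at -0.75 (adjusted p = 0.00745 from limma) and lower in 5 of 5 donors. BCL2A1, a known NFκB target in blood cells, had at most 2.29 normalized counts and was not tested, nor were NAIP (at most 3.59) and BIRC7 (0 in all libraries).

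For the 17 death signalling genes reported here the median log2 fold change was 0.04. By limma 0 were higher and 0 lower, and at an unadjusted p below 0.05 there were 1 higher and 0 lower. Without donor 3, or without only its IL-1β library, 1 was higher. RIPK3, a kinase of necroptosis, had the largest log2 fold change of them, 0.90 (adjusted p = 0.291 from limma, 0.0435 with the replicate block), and was higher in 4 of 5 donors. BAX, which permeabilizes mitochondria, was at 0.43 (adjusted p = 0.118, and 0.0431 with the replicate block). CASP8 was at 0.27 (adjusted p = 0.386), with a difference of 1.11 in donor 4, and at 0.06 without that donor. CASP10, the next gene to CFLAR on a newer horse assembly (TB-T2T), was at 0.48 (adjusted p = 0.175) and also moved most in donor 4, by 1.32.

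Among 9 relatives of the TNFAIP genes and of EXOC3, to which TNFAIP2 is related, 0 were higher and 1 was lower, against 3.11% and 3.57% of all genes. There were 1 higher and 2 lower at an unadjusted p below 0.05. TNFAIP8L3, which encodes a carrier of phosphoinositides in the TNFAIP8 family, fell by 1.91 in log2 expression (limma, standard error 0.24, adjusted p = 7.00e-04) and in 5 of 5 donors, by 1.64 to 2.31. TNFAIP6, named like the others for its induction by TNF but encoding a hyaluronan-binding protein, was at 0.85 (adjusted p = 0.137).

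**Figure D5:**
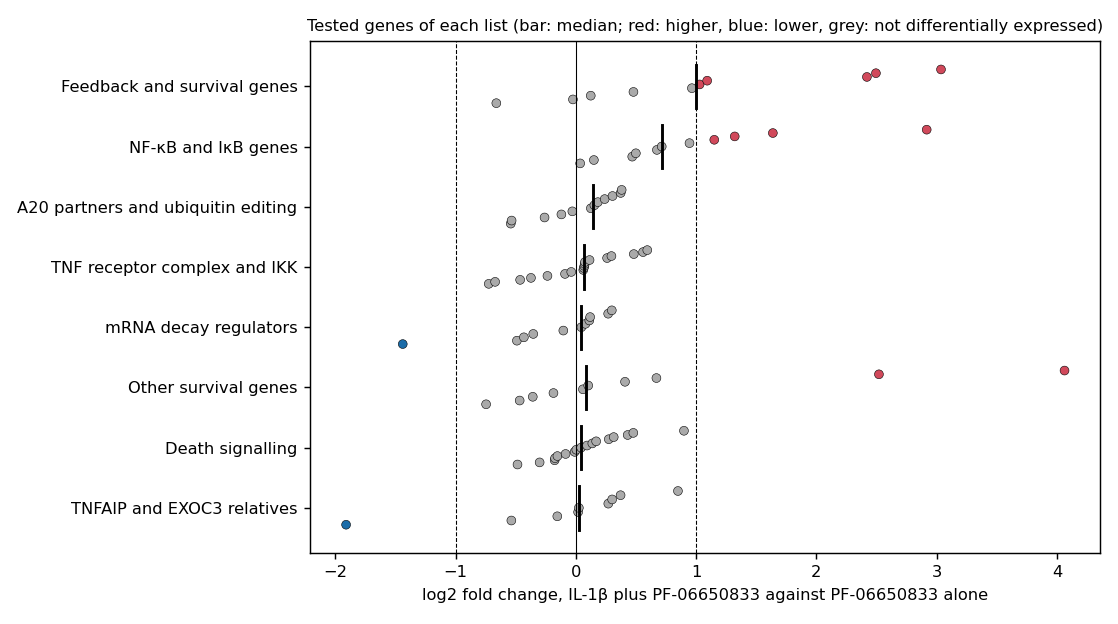
Log2 fold change (horizontal axis) of every tested gene in the 8 lists, with the median of each list as a bar, dashed lines at the minimum fold change of 1, and red and blue for differentially expressed genes that were higher and lower. The medians are 1.00 for the feedback and survival genes and 0.71 for the NFκB and IκB genes, and between 0.02 and 0.14 for the other lists.

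Markers of the cells were read in the same libraries. Of 9 listed tenocyte markers TNMD was at 0 reads in all libraries, and SCX, MKX, TNC and COMP were lower with IL-1β plus PF-06650833 (log2 fold changes from -3.63 to -2.04). COL1A1 and COL1A2, the chains of collagen I, were at -1.38 and -1.28 (adjusted p = 0.0682 and 0.0614 from limma) and were counted as lower with the replicate block (adjusted p = 0.0147 and 0.0169), which took the list from 4 to 6 lower. DCN, the gene of the proteoglycan decorin, was higher in 5 of 5 donors, at 1.00 (adjusted p = 0.268, and 0.0529 with the replicate block), and THBS4 was at -1.22 (adjusted p = 0.437). The summed normalized counts of the list, mostly collagen I, ran from 885900 to 1459000 in the group without IL-1β and from 234800 to 983700 in the group with it. Of the 9 leukocyte markers AIF1, CD3E and MS4A1 were at 0 in all libraries, PTPRC (CD45) had reads in 1 library, with 3.09 normalized counts, and CSF1R reached at most 1.14. CD68 rose by 1.70 in log2 expression (limma, adjusted p = 0.00795), from at most 103.4 to between 170.0 and 737.9 normalized counts. CD14 ranged from 0 to 1682 normalized counts and was higher with IL-1β in 4 donors and lower in 0. Its log2 fold change was 2.66 (adjusted p = 0.34 from limma, 0.106 with the replicate block). Summed leukocyte markers were at 220.0 to 1976 and 344.2 to 2148. Endothelial markers summed to at most 45.9 normalized counts in any library, and EPCAM, KRT5, MYOD1 and MYF5 were at 0. The epithelial marker KRT8 had at most 5.29 normalized counts in any library. The muscle markers MYH11 and DES and the epithelial marker CDH1 had many reads. The muscle marker MYH11 ran from 1102 to 32520 normalized counts without IL-1β and from 3720 to 12080 in its presence. Its groups overlapped (log2 fold change -0.56, adjusted p = 0.678 from limma). CDH1 was at 532.4 to 1571 normalized counts without IL-1β, and DES at 145.9 to 1074. Both were lower with IL-1β (-2.22 and -2.98), at 43.1 to 442.2 and 16.1 to 148.7. The part of these markers in the values of the 10 genes was not tested.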

How the data were processed

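RNA sequencing data of 10 libraries of equine tenocytes were analysed. Per the labels and the methods of the study, the authors checked reads with FastQC (version 0.11.9), quantified them on the EquCab3.0 transcriptome with Salmon (version 1.8) with GC-bias correction, summed them to genes with tximport and analysed them with DESeq2 (version 1.36). The deposited table holds log2 values already normalized between libraries. It was recognised from its values as variance-stabilized, with 3.433 as the value of 0 reads, and which libraries shared its normalization is not given in the sources used here. The authors' count test was not repeated, since the table holds no counts.

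Genes above that lowest value in at least 5 libraries entered a linear model in limma (version 3.58.1, under R 4.3.3), with a mean-variance trend and no donor term, none being named in the methods. Groups were taken from the treatment labels. The lines pair the libraries, because the same line gave 1 library to each group, and deviations from the group means correlated at 0.367 to 0.506 within lines across genes and at -0.266 to 0.087 between lines. Normalized counts were obtained by inverting the transformation from its value at 0 reads. The fit was tested on simulated counts with no effect of the line and with changes larger than the minimum fold change. That test does not bear on the pairing or on genes near the minimum. The alternatives were the replicate block, back-transformed values with a pseudocount of 1 or 0.5, other filters, scalings, variance models and thresholds, and leaving out libraries or donors. The genes described and the lists were chosen with earlier results of these data known, and genes next to them were added after the values had been seen. Named are the 10 genes, their paired relatives and, from each list, up to 4 differentially expressed genes with the smallest adjusted p, and further list genes were named after their values were seen. From the death signalling list 1 gene is not reported here. RNF31 and COL3A1 were on the lists and not analysed here. RefSeq gene names of the TB-T2T assembly matched 10 of 10 genes and served for names and neighbours only.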

Additional observations from a re-analysis of the deposited data

Results flagged for a closer look

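Among 50 sets of 5 libraries, each searched for 1 value lying away from the 4 remaining ones, 2 such values were found, where chance gives about 2.5 (1 in 20). With PF-06650833 alone, TNIP1 was at 12.76 in donor 2, against 12.21 to 12.37 in the others. With IL-1β plus PF-06650833, ZC3H12A was at 11.66 in donor 3, against 12.35 to 12.63.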

How the results depend on the processing

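For the 25 named genes, 630 of 650 values under alternatives kept their direction and their call, and 15 of these lay on the other side of the threshold on adjusted p, such as TNFAIP2 with the replicate block. The replicate block changed no call of a named gene and no count of the pathway lists, and took the tenocyte markers from 4 to 6 lower. The count of differentially expressed genes, 1202 (560 higher, 642 lower), was 719 (345 and 374) at an adjusted p below 0.01, 2782 (1362 and 1420) without a minimum fold change, 1486 with the replicate block, and 1809 with the replicate block on back-transformed values. In that last fit the count of differentially expressed genes, higher only, was 891. The full count was 762 to 1422 over the 15 fits without a library or a donor, with 356 to 647 higher and 389 to 775 lower. Of the 10 genes, 4 to 6 were higher and 0 lower in those fits. Without a minimum fold change 1 member, TRAF1, was lower, and the lists then gave 2 higher and 1 lower (A20 partners), 1 and 2 (TNF receptor complex), 7 higher (NFκB and IκB), 1 lower (other survival genes) and 2 lower (mRNA decay). Under quantile normalization TNIP1 (0.997) lost its call, and CFLAR minus CASP8 passed (-0.22, adjusted p = 0.0238, exact test). TNFAIP8 reversed with centring (0.006) and array weights (0.023).

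Over the fits without a library or a donor, the log2 fold change of each gene ranged from 0.85 to 1.15 for TNIP1, 0.70 to 1.241 for TNFAIP2, 0.10 to 0.84 for TNIP3, 0.01 to 0.20 for CFLAR, 0.06 to 0.37 for CASP8, -0.135 to 0.074 for TNFAIP8 and -0.092 to 0.194 for TNFAIP8L1, and counts from 0 to 1 higher death signalling genes and 0 to 1 higher TNFAIP relatives. Leaving out a donor, the pairs ranged from 1.21 to 1.77 (BIRC3 minus BIRC2), 2.46 to 3.06 (BIRC3 minus XIAP), 1.11 to 1.37 (TNIP1 minus TNIP2), -1.49 to -1.08 (TRAF1 minus TRAF2), 2.80 to 3.35 (TNFAIP3 minus OTUD7B), -0.24 to 0.14 (TNFAIP8 minus TNFAIP8L1) and 2.60 to 2.94 (ZC3H12A minus ZC3H12C). For the 5 pairs that had passed, the exact test gave an adjusted p of 0.0429 without donor 4 and of 0.0514 without any other donor, each at the smallest p that 4 libraries against 4 allow. An exact sign-flip test within lines cannot go below 0.0625 and was not counted. The cause of these changes was not tested. The table holds no measure of sequencing depth, since its values are already normalized between libraries.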

Other observations

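The protein-coding genes on either side of the 10 genes were read as well (order from RefSeq on the TB-T2T horse assembly, not the EquCab3.0 build of the table). There BIRC3 and BIRC2 lie next to each other, and TNFAIP2 lies beside EXOC3L4, a gene of the same family. Of 18 neighbours 16 could be tested, and IL-1β raised 1 and lowered 1 of them. Over all tested genes 3.11% were higher and 3.57% lower. YAP1 and TMEM123, the outer neighbours of the BIRC3 and BIRC2 pair, were at log2 fold changes of -0.18 (adjusted p = 0.286 from limma) and 0.44 (adjusted p = 0.214).

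The lower neighbour was GPX3, which encodes a secreted glutathione peroxidase and lies beside TNIP1. It averaged 10.68 ± 0.71 (log2, SD, n = 5) without IL-1β and 7.63 ± 0.58 (SD, n = 5) in its presence, so that it fell by 3.05 (adjusted p = 4.41e-04 from limma) in 5 of 5 donors, while TNIP1 rose. The higher neighbour was LOC102148440, beside TNFAIP2 and without a gene symbol. It went from 1.32 to 23.9 normalized counts with PF-06650833 alone to 138.0 to 1968 when IL-1β was added, a rise of 4.13 in log2 expression (adjusted p = 0.00169 from limma), higher in 5 of 5 donors, donor 5 included, in which TNFAIP2 moved by -0.06. Both genes were picked out after their values had been seen.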
